A study of Mus musculus with 5 samples.

Results

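Mature dendritic cells marked by *Ccr7* and *Fscn1* were followed through 5 droplet single-cell RNA libraries of mouse lung. A cell barcode was counted as a member when it held 1 or more UMIs (unique molecular identifiers, 1 per counted RNA molecule) of *Ccr7*, 2 or more of *Fscn1* and 1 or more of *H2-Aa*, with *Cd3e*, *Cd79a* and *Car4* at 0. It also had to pass the quality filter, which asked for 300 to 8000 detected genes, for 800 to 60000 UMIs, and for a mitochondrial share under 15%. The rule found 955 cells among 44772 kept barcodes (2.13%), out of 52800 barcodes in the files.

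Immune cells came from perfused, digested lungs of adult *Ms4a3-CreER;R26-tdT* mice on a mixed C57BL6 and 129 background. The study as a whole used both sexes, and the sex of the mice in each library is not given. The *Ms4a3* promoter drives a tamoxifen-inducible Cre in granulocyte and monocyte progenitors, so that the red reporter tdT marks cells derived from them. There was 1 library from PBS-treated lungs (called sham here) and 1 library each from lungs on day 3, day 7, day 14 and day 28 after intratracheal bleomycin, a drug that injures the lung and leads to fibrosis. How many mice went into a library is not given in the sources used here, and with 1 library per group no test between time points was possible. Every value against sham shares the same sham library.

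Dendritic cells take up antigen in tissue and present it to T cells. When they mature they raise the chemokine receptor CCR7, which guides them along lymphatic vessels to the draining lymph node, and the actin-bundling protein fascin, encoded by *Fscn1*, which goes with their long processes. The same state is known for a non-canonical NF-kB programme, for co-stimulatory as well as inhibitory ligands, and for the chemokines CCL17 and CCL22, which bind CCR4 on T cells. It can be reached from type 1 dendritic cells, which carry *Xcr1* and *Clec9a*, and from type 2 dendritic cells, many of which carry *Cd209a*.

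The libraries held 131210167 UMIs in sham, 89769386 on day 3, 151234640 on day 7, 144984156 on day 14 and 167506186 on day 28. The day 7 library stands apart because its lowest barcode has 4624 UMIs, against 500 to 502 in the other libraries. A barcode sequence found in more than 1 library occurred 313 times, and 0, 3, 5, 2 and 2 members in the order of the time course carried one. Predicted doublets, the barcodes with the highest Scrublet scores, were left in as the rule does. They made up 14.8% of members in sham and 6.94 to 8.14% in the bleomycin libraries, against 7.17 to 10.1% of all kept barcodes. The members had median depths of 14949, 12855, 12194.5, 14430 and 11840 UMIs per cell, and median mitochondrial shares of 3.55, 1.14, 3.08, 3.65 and 4.06%.

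Mature dendritic cells were 27 of 9238 kept barcodes in sham (0.292%, exact binomial 95% interval 0.193 to 0.425). They were 140 of 8004 on day 3 (1.75%, 1.47 to 2.06) and 418 of 9493 on day 7 (4.40%, 4.00 to 4.84). They were 149 of 7757 on day 14 (1.92%, 1.63 to 2.25) and 221 of 10280 on day 28 (2.15%, 1.88 to 2.45). The sham share lay below all bleomycin shares and the day 7 share above all others, with intervals that cover counting error only and do not overlap those of the other libraries. The intervals of day 3, day 14 and day 28 overlapped one another. The shares are of all kept barcodes, so a larger share and fewer cells of other types cannot be told apart.

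The conditions of the rule acted unequally. Of the kept barcodes with enough *Ccr7* and *Fscn1*, a *Cd3e* UMI was held by 2 of 52 in sham and 9 of 188 on day 3. It was held by 103 of 593 on day 7, 15 of 193 on day 14 and 11 of 277 on day 28. A *Cd79a* UMI was held by 1, 15, 34, 4 and 2 of them. No share was taken without the *Cd3e* condition. The condition on *Car4*, which marks alveolar macrophages, was unequal as well. In sham it removed 21 of 48 barcodes that met the rest of the rule (43.8%), against 8.33 to 12.4% in the bleomycin libraries, and 72.0% of the other kept sham cells held a *Car4* UMI, against 19.1 to 25.7%. The sham barcodes removed in this way held a median of 1 *Car4* UMI and at most 34. They had 2267 CPM of *Ccl22* and 932 CPM of *Il4i1*, against 3072 and 878 CPM in the sham members. They also had 2606 CPM of *Chil3*, against 389, and 4929 CPM of *Ccl5*, against 8274. Here CPM (counts per 1e6) relate a gene's summed UMIs to all UMIs of the same cells in that library. Without the *Car4* condition, an alternative chosen after seeing the data, the shares were 0.520% in sham, 1.92% on day 3, 4.80% on day 7, 2.19% on day 14 and 2.40% on day 28. With the lowest UMI count of the day 7 library as a floor in every library they were 2.17% on day 3, 2.41% on day 14 and 2.72% on day 28. Without the barcodes seen in more than 1 library they were 0.296, 1.73, 4.41, 1.92 and 2.15%. The order of sham lowest and day 7 highest held in each of these.

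The neighbouring dendritic cell classes were gated in the same libraries. Cd209a dendritic cells, with 2 or more *Cd209a* UMIs and none of *Ccr7*, *Xcr1*, *Clec9a* or *C1qa*, numbered 40 in sham, 30 on day 3, 249 on day 7, 26 on day 14 and 18 on day 28. Type 1 dendritic cells, with 2 or more UMIs of *Xcr1* and *Clec9a* together and none of *Ccr7*, numbered 59, 52, 397, 133 and 131. Both classes also had *H2-Aa* 1 or more, *Fscn1* under 2 and *Cd3e*, *Cd79a* and *Car4* at 0. For each type 1 cell there were 0.458 mature cells in sham, 2.69 on day 3, 1.05 on day 7, 1.12 on day 14 and 1.69 on day 28. The mature cells were therefore fewer than type 1 cells in sham and more numerous in every bleomycin library, with the highest ratio on day 3. For each Cd209a cell there were 0.675, 4.67, 1.68, 5.73 and 12.3 mature cells, with the highest ratio on day 28.

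**Figure D1:**
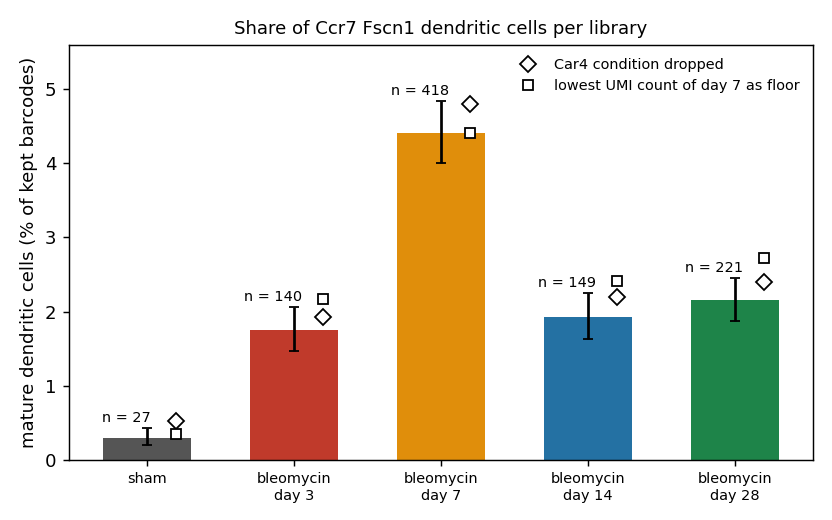
Share of kept barcodes in percent (vertical axis) that met the rule for mature dendritic cells in each of the 5 libraries (horizontal axis), with exact binomial 95% intervals as error bars and the number of members above each bar. Open diamonds give the share without the *Car4* condition and open squares the share with the day 7 floor on UMIs, and the bars go from 0.292% in sham to 4.40% on day 7.

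The label was set beside *Ccl22* and *Il4i1*, which the rule did not use. *Ccl22* encodes a CCR4 ligand that draws T helper 2 and regulatory T cells, and lies on chromosome 8 at chr8:94745590-94751699 of GRCm38 on the plus strand. Its level in members was 3072 CPM in sham, 1244 on day 3, 1731 on day 7, 1435 on day 14 and 1649 on day 28. In Cd209a cells it was 76.8, 20.4, 84.7, 41.8 and 16.2 CPM, and in type 1 cells 134, 141, 95.1, 42.7 and 87.0 CPM. The member values lay above both other classes in every library. *Il4i1*, a secreted amino acid oxidase that restrains T cells, had 878, 760, 691, 473 and 569 CPM in members. Against type 1 cells *Il4i1* was higher with a log2 fold change of 7.15, and against Cd209a cells with 5.04, both with an adjusted p under 0.05 (edgeR's quasi-likelihood test with Benjamini-Hochberg adjustment). Both markers that the rule left free were thus higher in the members. The other classes were gated to hold no *Ccr7* and under 2 *Fscn1* UMIs. Genes that go with these 2 in single cells are therefore no independent check of the label. Members just inside the threshold, with exactly 2 *Fscn1* UMIs, were 29 cells with 361 CPM of *Ccl22* and 244 CPM of *Il4i1*. The 47 cells just outside, with 1 *Fscn1* UMI, had 588 and 139 CPM, so *Ccl22* was higher outside and *Il4i1* inside. The 18 members with exactly 1 *Ccr7* UMI had 366 and 150 CPM, and the 60 cells outside with none had 122 and 127 CPM.

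The type of origin was not fixed by the rule. By the count of members with 2 or more markers of a list, 11.1% in sham carried only the type 1 list. Only the type 2 list was carried by 44.4% (12 of 27). Cells were not thinned for this count. *Tnip3* alone made up 76.3% of the type 2 list's UMIs in the members, and its part in the counts was not tested. In the bleomycin libraries 10 to 16.1% carried only the type 1 list, 19.5 to 25.8% only the type 2 list and 9.05 to 16.1% both. Those with neither were 40.7% in sham and 46.3 to 57.9% after bleomycin. *Xcr1*, *Clec9a* and *Cd209a* themselves were at 16 CPM or less in the members of each library. The counts do not place a cell by themselves, since Cd209a cells held 2 or more markers of both lists in 71.9 to 92.3% of cases.

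Markers of other cell types were measured in the members. The T cell list summed to between 227 CPM (sham) and 421 CPM (day 14), of which *Il7r*, a cytokine receptor, made up 83.8%. The interstitial macrophage list, led by *Apoe*, had 35.6 CPM in sham, 581 on day 3, 1301 on day 7, 2698 on day 14 and 1777 on day 28, and at least 3 of its 8 markers occurred in 0, 12.9, 27.8, 70.5 and 57.0% of the members. The epithelial list had 527, 92.7, 4961, 749 and 3156 CPM, with 94.2% of it from the club cell secretoglobin *Scgb1a1*, and at least 3 of its markers occurred in 0.714 to 20.3% of the members, most often on day 7. The erythroid list, led by the globin *Hbb-bs*, stood at 2446 CPM on day 14, with 93.7% of the *Hbb-bs* UMIs in 1 member, and at 29.3 CPM or less elsewhere. The alveolar macrophage list, led by the chitinase-like *Chil3*, had 641, 178, 394, 436 and 983 CPM, and at least 3 of its 8 markers occurred in 63.0% of the sham members, 5.71% on day 3, 10.0% on day 7, 20.8% on day 14 and 27.6% on day 28. The monocyte list, also led by *Chil3*, had 405, 675, 400, 477 and 929 CPM. At least 3 of its 7 markers occurred in 11.4% of the day 3 members and in 0 to 7.38% elsewhere. The neutrophil list, led by *S100a9*, had 935 CPM on day 7 and 81.4 to 494 CPM elsewhere. Natural killer genes reached 107 CPM on day 3, led by the granzyme *Gzma*, and were at 7.63 to 26.7 CPM in the other libraries. Of the 6 mast cell and basophil markers, 4 were at 0. At least 3 T, B, natural killer or endothelial markers occurred in 0 members in sham, 23 on day 3 (16.4%), 23 on day 7 (5.50%), 4 on day 14 (2.68%) and 5 on day 28 (2.26%). The fibroblast list, led by *Mgp*, went from 2.54 CPM in sham to 423 CPM on day 7. The part of all these lists in the values of the members was not tested.

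Genes that set the members apart were tested by summing UMIs per class and library and fitting edgeR's quasi-likelihood model with the library as a block, so that each mature sum was paired with the other class of the same library. Genes of the gates were left out. The members were chosen on *Ccr7* and *Fscn1*, so genes that go with these in single cells are described here rather than found independently of the rule. Against Cd209a cells 1689 of 7737 genes tested were higher (21.8%) and 1644 lower (21.2%) at an adjusted p under 0.05. Against type 1 cells 2144 of 9093 were higher (23.6%) and 2143 lower (23.6%). Without the day 7 library, which holds most of the Cd209a cells, the counts against Cd209a cells were 1120 higher and 1087 lower. The median log2 fold change over all genes tested was 0.01 against Cd209a cells, and lists of genes are read against these shares.

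**Figure D2:**
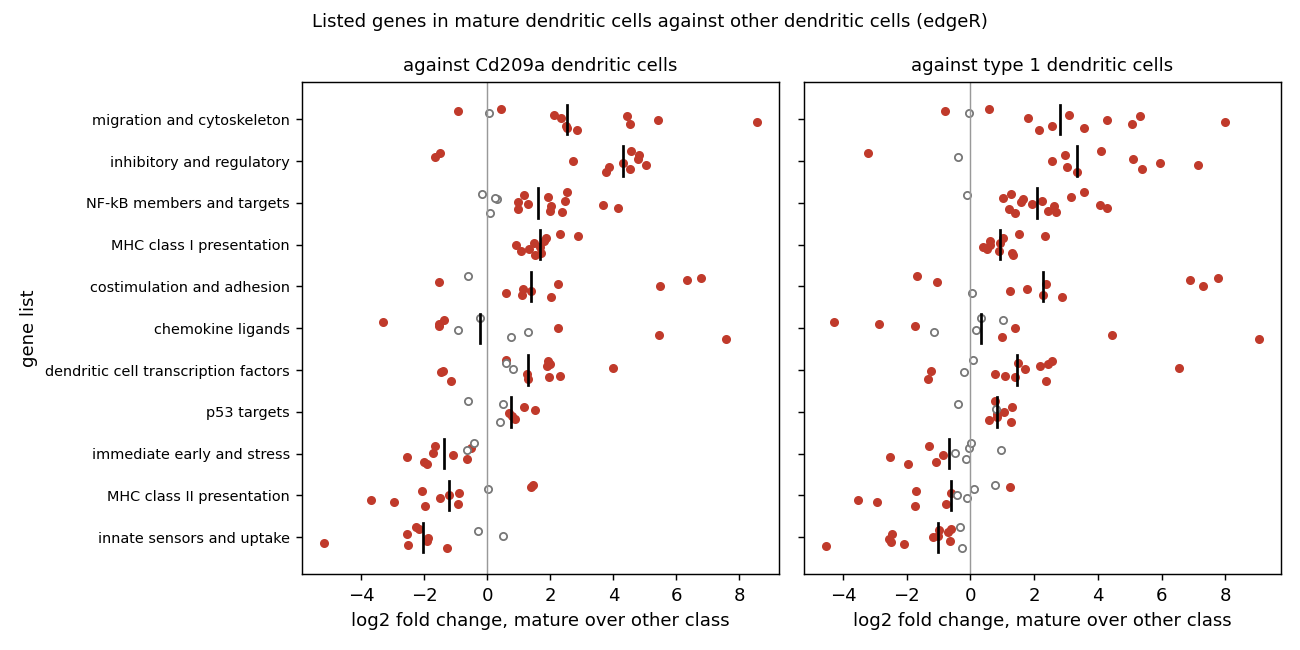
Log2 fold change (horizontal axis) of the listed genes in mature dendritic cells against Cd209a cells (left) and type 1 cells (right), by gene list (vertical axis), with 1 point per gene, filled where the adjusted p was under 0.05 in edgeR's test, and a bar at each list's median. The inhibitory and regulatory list has medians of 4.31 and 3.35, and the sensor and uptake list lies to the left, with -2.04 and -1.03.

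Chemokine ligands divided into those that were high and those that were low in the members. *Ccl5*, a chemokine that draws T cells and monocytes (chr11:83525778-83530518, minus strand), had 8274 CPM in sham, 10410 on day 3, 4487 on day 7, 5138 on day 14 and 7534 on day 28. Cd209a cells had 2.0 to 126 CPM of it and type 1 cells 4.16 to 23.3 CPM, so the classes did not overlap. Its log2 fold change was 7.57 (SE 0.54, adjusted p = 1.2e-06) against Cd209a cells and 9.06 (SE 0.42, adjusted p = 5.1e-07) against type 1 cells, in 5 of 5 libraries each. *Ccl22* was higher by 5.44 (SE 0.26, adjusted p = 1.1e-07) and 4.45 (SE 0.25, adjusted p = 1.1e-06) on the log2 scale. *Cxcl16*, a membrane-bound ligand of CXCR6, was higher by 2.25 (SE 0.28, adjusted p = 6.8e-05) and 1.40 (SE 0.19, adjusted p = 0.00026). *Ccl4*, a chemokine made by many activated myeloid cells, fell by 3.29 (SE 0.28, adjusted p = 4.2e-06) and fell by 4.28 (SE 0.24, adjusted p = 1.2e-06) on the same scale. Of the list, 3 of 11 genes were higher and 4 lower against Cd209a cells, and 4 higher and 3 lower against type 1 cells. The median was -0.24 against Cd209a cells and ranged from -0.49 to 0.48 as 1 library was left out at a time, so the list had no direction of its own.

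*Ccl17* (chr8:94810453-94812036, plus strand), the other CCR4 ligand and a neighbour of *Ccl22* on chromosome 8, differed from it in this. Members had 1402 CPM in sham, 780 on day 3, 1653 on day 7, 1091 on day 14 and 1280 on day 28. Cd209a cells had 266, 245, 2311, 1341 and 1549 CPM, which is lower than the members in sham and on day 3 and higher in the other libraries. The log2 fold change of 0.74 (SE 0.39) did not pass the test (adjusted p = 0.15, edgeR) and was positive in 2 of 5 libraries. Against type 1 cells *Ccl17* was higher by 0.98 (SE 0.24, adjusted p = 0.0082), in 4 of 5 libraries.

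The inhibitory and regulatory list had medians of 4.31 and 3.35 in the comparisons, and 9 of its 11 tested genes were higher in the members against either class. *Cd274*, which encodes the checkpoint ligand PD-L1, had 206 CPM in sham, 307 on day 3, 288 on day 7, 326 on day 14 and 173 on day 28. In Cd209a cells it had 3.94 to 41.8 CPM and in type 1 cells 6.57 to 47.8 CPM. *Cd274* was higher by 3.78 (SE 0.28, adjusted p = 1.4e-06) and 3.35 (SE 0.29, adjusted p = 1.4e-05) on the log2 scale. *Pdcd1lg2*, which encodes PD-L2, was higher by 4.53 and 5.40, and *Cd200*, a ligand of an inhibitory myeloid receptor, by 3.87 and 3.04. *Aldh1a2*, the enzyme that makes retinoic acid, had 323 CPM in sham and 88.9 to 135 CPM after bleomycin, and was higher than in the other classes by 4.31 and 5.94. *Socs2*, a suppressor of cytokine signalling, was higher by 4.78 and 5.12, and the death receptor *Fas* by 4.55 and 4.10. *Havcr2*, which encodes the receptor TIM-3, fell by 3.23 against type 1 cells and was also lower than in Cd209a cells. All values named in these sentences passed an adjusted p of 0.05 in edgeR's test.

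Co-stimulatory genes were higher in most cases, with 9 of 11 higher and 1 lower against Cd209a cells and 8 higher and 2 lower against type 1 cells. *Cd40*, the receptor for T cell help, had 132, 267, 99.9, 108 and 62.4 CPM from sham to day 28, and was higher by 2.03 (SE 0.21, adjusted p = 1.8e-05) and 2.86 (SE 0.26, adjusted p = 2.2e-05) on the log2 scale. The tumour necrosis factor receptors *Tnfrsf4* (OX40) and *Tnfrsf9* (4-1BB), better known from activated T cells, were higher by 6.33 and 6.77 against Cd209a cells and by 6.90 and 7.78 against type 1 cells. *Cd86*, a ligand of CD28, was higher by 0.61 against Cd209a cells, and its 0.06 against type 1 cells did not pass the test. *Cd83*, a marker of mature dendritic cells that stabilizes MHC class II at the surface, was higher by 1.38 (SE 0.14, adjusted p = 1.2e-05) and 1.25 (SE 0.10, adjusted p = 1.2e-05). Of the cytokines, 2 of 9 tested were higher and 2 lower against Cd209a cells. Against type 1 cells 6 of 10 were higher and 3 lower. *Il1b*, which made up 43.5% of the list in members, fell by 1.73 (SE 0.21, adjusted p = 5.7e-05, edgeR) against Cd209a cells. The summed list lay below that of Cd209a cells in every library, with 1563 against 2935 CPM on day 7. *Il12b*, the p40 subunit shared by IL-12 and IL-23, had 421 to 636 CPM in members and was higher by 6.51 and 4.02. *Il15*, a survival factor for T and natural killer cells, had 32.5 to 74.1 CPM and was higher by 3.69 and 2.91. *Il12a*, *Il23a* and *Il10*, the partners and the opposing cytokine, were at 7.95 CPM or less in the members of every library.

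NF-kB genes were higher in 12 of 16 against Cd209a cells and in 15 of 16 against type 1 cells, and none was lower. *Relb*, the transcription factor of the non-canonical arm, had 570 CPM in sham, 873 on day 3, 392 on day 7, 507 on day 14 and 483 on day 28. Its log2 fold change was 4.14 (SE 0.19, adjusted p = 9.0e-08) against Cd209a cells and 4.30 (SE 0.18, adjusted p = 3.6e-07) against type 1 cells. *Nfkb2*, which encodes its p100 and p52 partner, was higher by 2.39 and 2.67, and *Map3k14*, the kinase NIK that starts this arm, by 1.94 and 3.15. *Birc2*, a ubiquitin ligase that acts on NIK, was higher by 3.66 and 4.06, and *Nfkbia*, the inhibitor of the canonical arm, by 0.97 and 1.57. The higher genes therefore included activators and inhibitors of the pathway.

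Promoter sequence was examined because these genes moved together. The windows are from RefSeq on GRCm38.p6 and run from 250 bases before to 50 bases after a gene's start, and 14 of 16 listed genes had one. The NF-kB motif was searched on both strands in 6 spellings, of which the widest reads GGG, then any 3 bases, then TTCC, and overlaps with the others. This spelling occurred in 6 of the 14 genes and in 5.56% of all 32851 promoters (6.31% of 27025 genes). A window of *Nfkb2* at chr19:46305445-46305744 on the plus strand and the window of *Nfkbia* at chr12:55492598-55492897 on the minus strand are shown as examples with the matches in capitals. A match is a run of letters and was not tested for binding.
Nfkb2: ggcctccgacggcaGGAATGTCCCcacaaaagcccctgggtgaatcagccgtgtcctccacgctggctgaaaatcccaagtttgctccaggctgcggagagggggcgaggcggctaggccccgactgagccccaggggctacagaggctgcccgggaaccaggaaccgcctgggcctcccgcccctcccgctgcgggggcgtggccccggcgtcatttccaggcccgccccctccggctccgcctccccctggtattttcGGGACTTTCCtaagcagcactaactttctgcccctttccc
Nfkbia: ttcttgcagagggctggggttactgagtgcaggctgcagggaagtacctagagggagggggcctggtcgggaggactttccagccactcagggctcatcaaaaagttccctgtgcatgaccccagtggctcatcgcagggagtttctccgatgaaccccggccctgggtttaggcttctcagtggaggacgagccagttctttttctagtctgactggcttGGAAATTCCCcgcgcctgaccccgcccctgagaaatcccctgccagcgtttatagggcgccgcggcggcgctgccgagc

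Genes of cell shape and migration were higher in 10 of 12 tested against either class and lower in 1. *Cacnb3*, a calcium channel subunit that is a known marker of migratory dendritic cells, had 685 CPM in sham, 659 on day 3, 396 on day 7, 522 on day 14 and 358 on day 28. In the other classes its highest value was 8.11 CPM. It was higher by 8.55 (SE 0.36, adjusted p = 7.2e-08) and 7.98 (SE 0.33, adjusted p = 3.6e-07) on the log2 scale. *Tmem123*, *Samsn1* and *Anxa3* were higher by 4.53, 4.43 and 5.41 against Cd209a cells. *Coro1a*, an actin regulator of leukocytes, fell by 0.91 and fell by 0.79.

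The presentation genes split by class of MHC. All 11 MHC class I genes were higher in the members against both classes, with medians of 1.69 and 0.94. *B2m*, the light chain of MHC class I, had 3046, 4667, 3229, 3836 and 4412 CPM and was higher by 1.51 (SE 0.14, adjusted p = 8.0e-06) and 1.33 (SE 0.12, adjusted p = 2.4e-05). *H2-K1*, a heavy chain, was higher by 1.72 and 1.31, and the proteasome activator *Psme2* by 2.87 and 2.35. Of 11 MHC class II genes 8 were lower and 2 higher against Cd209a cells, and 6 lower and 1 higher against type 1 cells. *H2-Ab1*, the beta chain of I-A, had 1120 CPM in sham, 3731 on day 3, 2997 on day 7, 2242 on day 14 and 1291 on day 28. Cd209a cells had 7569 to 10753 CPM of it and type 1 cells 7236 to 9630 CPM, all above the members. *H2-Ab1* fell by 1.98 (SE 0.27, adjusted p = 0.00011) and fell by 1.74 (SE 0.27, adjusted p = 0.00055), and *Ciita*, the master regulator of the class II genes, fell by 2.08 and fell by 1.70. *H2-DMa*, which loads peptide onto class II, fell by 2.95 and fell by 2.93. *Cd83* was the member of this list that was higher against both classes.

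Sensor and uptake genes were lower in 8 of 10 against Cd209a cells and in 11 of 13 against type 1 cells, and none was higher. Against type 1 cells 5 of the 13 were lower without the library block, and 6 of 14 with the *Car4* condition dropped. In the type 1 class the list summed to 2053, 1818, 2727, 10132 and 12510 CPM from sham to day 28, with 85.3% from *Lyz2*. The interstitial macrophage list in that class had 29.1, 465, 2554, 5282 and 7126 CPM, against 35.6 to 2698 CPM in the members. The part of macrophage RNA in these lower calls was not tested. *Clec10a*, a lectin of type 2 dendritic cells, fell by 5.17 (SE 0.19, adjusted p = 4.0e-08) against Cd209a cells and fell by 2.57 (SE 0.43, adjusted p = 0.0010) against type 1 cells. *Tlr3*, the sensor of double-stranded RNA typical of type 1 cells, fell by 4.54 against them. Immediate early genes were lower in 8 of 10 and 5 of 10, and *Fos* fell by 1.90 and fell by 1.97. Cycling genes were lower in 6 of 7 against type 1 cells and in 1 of 6 against Cd209a cells, but in 6 of 7 against Cd209a cells without the day 3 library and 3 of 7 without the day 28 library. Targets of p53 were higher in 5 of 8 against Cd209a cells (3 of 8 without the day 14 library) and in 7 of 9 against type 1 cells (4 of 9 without the day 7 library), and none was lower.

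Among transcription factors of dendritic cells 9 of 14 were higher and 3 lower against Cd209a cells, and 10 higher and 2 lower against type 1 cells. *Stat4*, which relays IL-12 and interferon signals, was higher by 3.98 (SE 0.19, adjusted p = 1.1e-07) and 6.54 (SE 0.26, adjusted p = 3.5e-07). *Irf4*, a factor of type 2 cells, fell by 1.15 against Cd209a cells and was higher by 2.38 against type 1 cells. *Irf8*, a factor of type 1 cells, was higher by 1.29 against Cd209a cells and fell by 1.34 against type 1 cells. *Irf4* in the members lay between the classes in each library, while *Irf8* was above Cd209a cells in 3 of 5 libraries and below both classes in sham and on day 14. *Fabp5*, a fatty acid binding protein, had 1809 to 4561 CPM and was higher by 4.16 and 3.22, while the lipid and sterol list as a whole had 4 higher and 2 lower of 11 against Cd209a cells and 3 higher and 4 lower of 12 against type 1 cells. Without the day 14 library none was lower against Cd209a cells and 1 of 12 against type 1 cells, and without the day 28 library 1 of 12 was lower against type 1 cells.

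Several of the largest differences lay in genes with no UMI in the other class. *Tmem150c*, a transmembrane protein gene, had 67.4 to 107 CPM in the members and no UMI in Cd209a cells, which is at least 119-fold higher against a floor of 3 UMIs over the group. *Ceacam15*, *Synpo2*, *Stap2* and the non-coding *Gm16685* were at least 77.4, 58.5, 52.9 and 48.0-fold higher. Against type 1 cells *Slco5a1*, an organic anion transporter family member, was at least 364-fold higher, *Ceacam15* at least 234-fold and *Insm1*, a zinc finger factor better known from neuroendocrine cells, at least 118-fold. *Ccl5*, described above, was 382-fold higher than in type 1 cells. *Nudt17* had 3 UMIs in type 1 cells and a ratio of 936 (counting interval 320 to 4541). The largest decreases against Cd209a cells were in the lectins *Cd209d* (fell by 5.88), *Cd209c* (fell by 5.52) and *Mgl2* (fell by 5.30), in the leukotriene receptor *Ltb4r1* (fell by 5.31) and in *Qpct* (fell by 5.25). Against type 1 cells they were in *Sept3*, *Fcrla*, *Siglech* and *Notch4*, which fell by 7.11, 5.91, 5.90 and 5.71, and in *Clnk*, which had 2 UMIs in members and was 155-fold more abundant in type 1 cells (counting interval 42.6 to 1285). *Siglech* is on the plasmacytoid dendritic cell list, which summed to 5670 CPM in the type 1 class on day 3 and to 377 to 752 CPM in its other libraries. In the Cd209a class the list had 1169, 2526, 616, 2107 and 280 CPM from sham to day 28. The members had 239, 1200, 348, 377 and 225 CPM, and *Siglech* also fell by 5.07 against Cd209a cells. The part of such cells in either comparison was not tested.

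Within the members the libraries were set against sham as log2 ratios of CPM, restricted to genes that reached 100 CPM in sham or on that day, with no test. On day 3, 176 of 1588 genes were 2-fold or more above sham (11.1%) and 75 were 2-fold or more below (4.72%). On day 7 there were 70 above (4.9%) and 75 below (5.25%) of 1428, which is 145 in all, against 95 with the *Car4* condition dropped. On day 14 there were 98 above (6.55%) and 50 below (3.34%) of 1497, and on day 28 there were 71 above (5.01%) and 76 below (5.37%) of 1416. The sham sum rests on 27 cells and 392931 UMIs, and the intervals given cover counting error only.

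**Figure D3:**
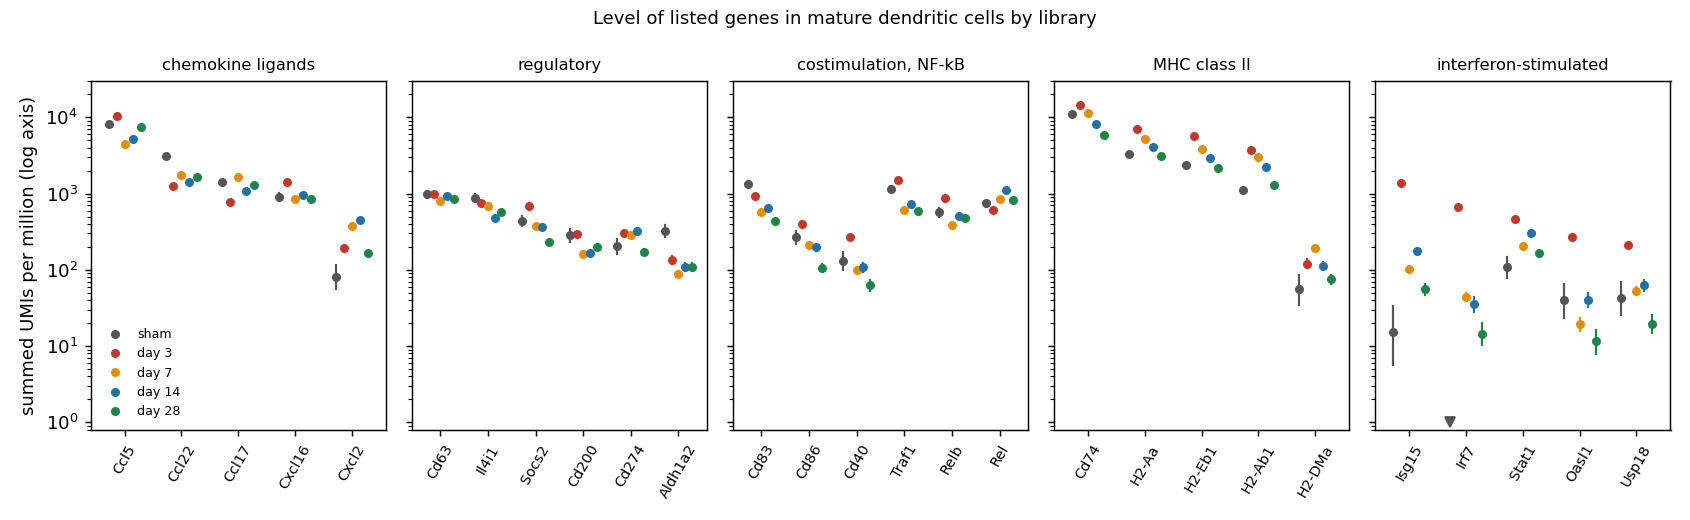
Level of selected listed genes in mature dendritic cells, as summed UMIs in CPM on a log axis (vertical axis), by gene (horizontal axis, in 5 panels by list), with 1 point per library and Poisson 95% intervals of counting error as bars. A triangle at the lower edge marks a gene with no UMI, and *Isg15* shows its highest point on day 3, with 1368 CPM against 15.3 in sham.

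The 16 interferon-stimulated genes, summed without a filter, had 425 CPM in sham, 4367 on day 3, 811 on day 7, 950 on day 14 and 462 on day 28, with *Isg15* as the most abundant gene (23.0% of the sum). *Isg15*, a ubiquitin-like protein induced by interferon, had 15.3 CPM in sham, 1368 on day 3, 102 on day 7, 176 on day 14 and 56.1 on day 28. Its log2 ratio on day 3 was 6.49 (5.36 to 7.93). *Irf7*, the factor that amplifies type I interferon, had no UMI in the sham members and 665 CPM on day 3, a log2 ratio of at least 6.45 against a floor of 3 UMIs over the sham members. *Cxcl10*, an interferon-induced ligand of CXCR3, had 0 CPM in sham and 175, 53.1, 15.5 and 2.6 CPM after it. *Ly6a*, another interferon-inducible gene, had the largest ratio, 8.83 (6.97 to 11.9), from 5.09 to 2312 CPM. *Plac8* and *Ly6c2*, the latter used below to gate monocytes, were also among the 5 largest increases. They went from no UMI in the sham members to 605 and 529 CPM, in 60% and 55% of the day 3 members. In the rest of the barcodes they had 1489 and 2034 CPM on day 3, and the part of monocyte RNA was not tested. The day 3 level was the highest of the 5 libraries for each of these named genes. It was not particular to the members: *Isg15* also went from 9.8 to 1670 CPM in Cd209a cells, from 8.4 to 948 in type 1 cells and from 21.2 to 1170 in the rest of the barcodes.

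The promoters of this list were searched for GAAA, then any 2 bases, then GAAA, the core of the interferon-stimulated response element, on both strands. It occurred in 8 of the 13 listed genes with a window (of 16 listed) and in 3.44% of all promoters (3.99% of genes). The windows of *Isg15* at chr4:156200769-156201068 on the minus strand, with 3 overlapping matches, and of *Ifit1* at chr19:34640639-34640938 on the plus strand, with 2 matches, are shown with the matches in capitals.
Isg15: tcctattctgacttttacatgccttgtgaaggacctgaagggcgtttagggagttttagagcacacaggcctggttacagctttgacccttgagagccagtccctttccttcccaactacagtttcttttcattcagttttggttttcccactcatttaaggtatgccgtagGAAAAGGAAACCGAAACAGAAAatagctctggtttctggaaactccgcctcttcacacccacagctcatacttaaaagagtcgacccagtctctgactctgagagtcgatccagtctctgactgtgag
Ifit1: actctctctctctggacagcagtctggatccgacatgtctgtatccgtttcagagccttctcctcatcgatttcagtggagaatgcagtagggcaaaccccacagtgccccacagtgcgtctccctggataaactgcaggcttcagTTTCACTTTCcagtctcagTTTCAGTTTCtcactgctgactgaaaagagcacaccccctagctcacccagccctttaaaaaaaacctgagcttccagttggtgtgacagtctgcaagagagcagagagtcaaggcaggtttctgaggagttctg

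MHC class II genes that the rule did not use were also above sham on day 3. *H2-Eb1*, the beta chain of I-E, had 2387, 5641, 3877, 2952 and 2164 CPM, and *Cd74*, the invariant chain, 11160, 14703, 11511, 8316 and 5891 CPM. *H2-Ab1* had a log2 ratio to sham of 1.74 on day 3, 1.42 on day 7, 1.00 on day 14 and 0.21 on day 28 in the members. On day 3 its ratio was -0.28 in Cd209a cells and -0.40 in type 1 cells, but 2.16 in the rest of the barcodes, and free RNA as a source was not tested. *Irf8* in members had 379 CPM in sham, 1070 on day 3, 468 on day 7, 522 on day 14 and 260 on day 28. *Bst2*, an interferon-induced tetherin that also marks plasmacytoid dendritic cells, had 163, 1026, 256, 291 and 163 CPM. Plasmacytoid dendritic cell markers, led by *Bst2*, summed to 1200 CPM on day 3 against 225 to 377 CPM elsewhere, and 16 of the 140 day 3 members held 3 or more of them. Their part in the day 3 levels was not tested.

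Other genes stood lower than sham at several days. The 12 co-stimulatory genes, summed without a filter, had 2746 CPM in sham, 2695 on day 3, 1528 on day 7, 1620 on day 14 and 1233 on day 28, with *Cd83* as the most abundant gene (37.3% of the sum). *Cd83* had 1344 CPM in sham, 923 on day 3, 571 on day 7, 644 on day 14 and 436 on day 28. *Cd86* had 267, 394, 213, 199 and 105 CPM. The 16 NF-kB genes summed to 8773, 8330, 5534, 6872 and 5441 CPM. *Aldh1a2* stood below sham at all 4 days, with log2 ratios of -1.26, -1.86, -1.56 and -1.57, and so did *Ccl22*, with -1.30, -0.83, -1.10 and -0.90. *Psca*, a surface antigen gene better known from epithelium, had 422 CPM in sham, in 44.4% of the members, and the largest decrease on day 3 (log2 ratio -9.76, counting interval -15.07 to -7.26, from 1 UMI) and on day 7 (-8.66, -10.12 to -7.50). *Hand1* and the decoy receptor *Tnfrsf11b* were also among the largest decreases at each day, but 71.2% of the sham *Hand1* UMIs, 50% of those of *Tnfrsf11b* and 39.2% of those of *Psca* lay in 1 cell.

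The largest increases after day 3 included genes known from macrophages, such as *C1qb*, *Spp1* and *Mmp12*, from red cells (*Hba-a1*, *Hba-a2*) and from connective tissue (*Mgp*). On day 14, 94.3% of the *Hba-a1* UMIs and 93.7% of the *Hba-a2* UMIs of the members lay in 1 cell, and so did 49.6% of those of *Mgp* on day 7 and 40.0% of those of *Mmp12* on day 28. *Apoe*, the macrophage apolipoprotein, had 5.1 CPM in the sham members, 113 on day 3, 885 on day 7, 1960 on day 14 and 1045 on day 28, and its log2 ratio was the largest on day 7 (7.44, counting interval 5.59 to 10.49 from 2 sham UMIs), day 14 (8.59, 6.74 to 11.64) and day 28 (7.68, 5.83 to 10.73). In the rest of the barcodes *Apoe* had 100, 1030, 5545, 9697 and 8972 CPM, with the same order of libraries. *Hbb-bs* had 1268 CPM on day 14 in members, but 93.7% of these UMIs lay in 1 member. *Scgb1a1* had 448, 80.0, 4688, 565 and 3075 CPM in members and 5106, 829, 10858, 6164 and 2642 CPM in the rest. For *Scgb1a1* the order of libraries in members differed from that in the rest, since the day 28 members lay above the day 14 members while the rest lay below. The epithelial list, of which *Scgb1a1* is the main part, was uneven among the day 28 members, with 292 CPM in the 144 that held a *Ccl22* UMI after thinning to 4000 UMIs and 10178 CPM in the 65 that did not. On day 7 it was the other way, with 6195 CPM in members with *Ccl22* and 996 CPM in those without. The part of free RNA in these levels was not tested.

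**Figure D4:**
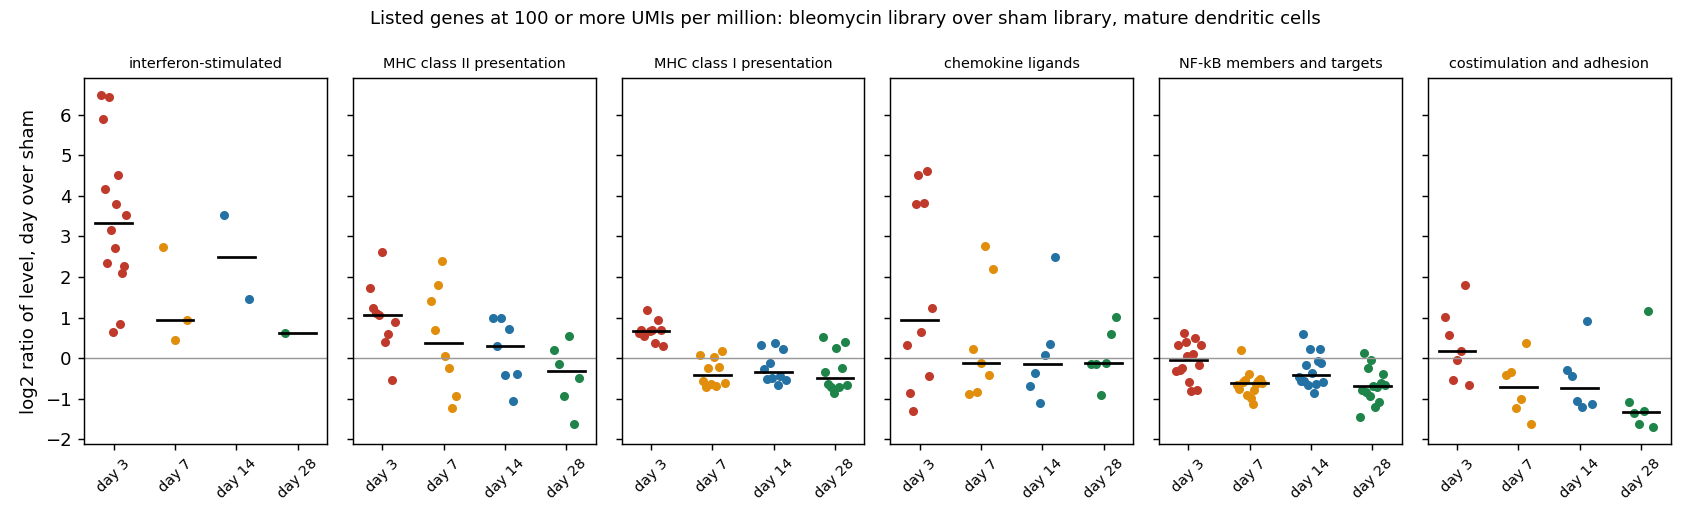
Log2 ratio of the level in mature dendritic cells of each bleomycin library to sham (vertical axis) by day (horizontal axis), with 1 panel per gene list, 1 point per gene that reached 100 CPM in sham or on that day, and a bar at the median. Genes can enter through the day on which they are high, so the points and medians do not stand for whole lists, and *Isg15* is among the highest points on day 3, at 6.49. A gene with no UMI in sham is drawn at its lower bound.

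The members were not uniform in *Ccl22* and *Ccl17*. To compare cells of unequal depth each member was thinned to 4000 UMIs, which left out 3, 5, 0, 12 and 12 shallower members. No *Ccl22* UMI was then seen in 1 of 24 members in sham (4.17%, exact binomial interval 0.105 to 21.1) and in 72 of 135 on day 3 (53.3%, 44.6 to 62.0). On day 7 it was 111 of 418 (26.6%, 22.4 to 31.1), on day 14 33 of 137 (24.1%, 17.2 to 32.1) and on day 28 65 of 209 (31.1%, 24.9 to 37.9). The day 3 share lay above those of all other libraries without overlap of the intervals. Both chemokines were seen in 18, 31, 237, 69 and 105 members and neither in 1, 69, 67, 28 and 31. Cells with *Ccl17* alone were 0, 3, 44, 5 and 34, and cells with *Ccl22* alone 5, 32, 70, 35 and 39. The members were concentrated in their *Ccl22*, since the tenth of members with most of it held 46.2% of its UMIs in sham and 54.3 to 72.8% after bleomycin.

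**Figure D5:**
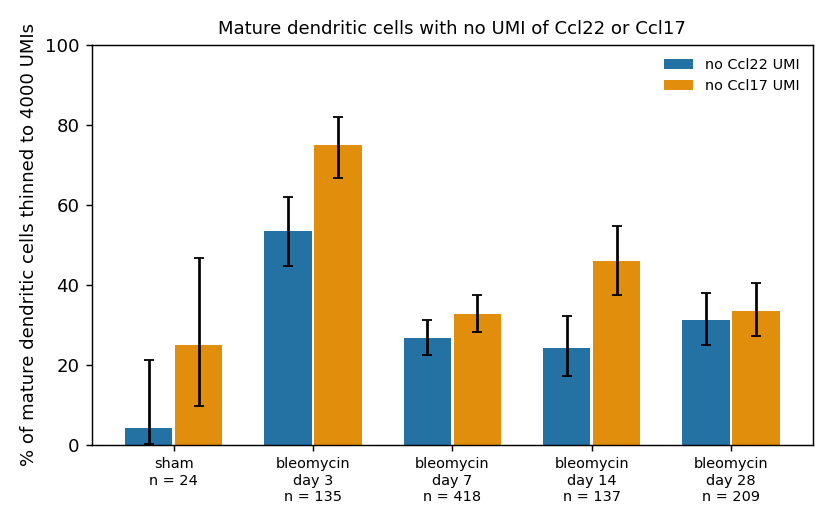
Share of members in percent (vertical axis) with no UMI of *Ccl22* or of *Ccl17* after thinning to 4000 UMIs, in each of the 5 libraries (horizontal axis, with the number of thinned members), with exact binomial 95% intervals as error bars. Both shares are highest on day 3, at 53.3% for *Ccl22* and 74.8% for *Ccl17*.

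On day 3 the 63 members with *Ccl22* and the 72 without were set side by side, as values with no test, and the genes named were chosen after their values were seen. *Ccl17* had 1488 CPM in those with *Ccl22* and 6.21 CPM in those without, *Aldh1a2* 242 and 18.6, and *Tnfsf9*, the ligand of 4-1BB, 254 and 41.4. *Cxcl10* had 36.4 and 330 CPM, *Gzma* 4.67 and 128, the progenitor factor *Sox4* 44.9 and 194 and the lymphoid factor *Tcf7* 22.4 and 105. Some maturation genes were close, with *Ccl5* at 11083 and 9623 CPM, *Relb* at 793 and 950, *Traf1* at 1438 and 1582 and *Etv3* at 625 and 641. Others were higher with *Ccl22*, such as *Nfkbia* at 1790 and 1112 CPM, *Nfkb1* at 478 and 274 and *Nr4a3* at 451 and 229. The interferon list summed to 4441 and 4320 CPM and the co-stimulation list to 3108 and 2213 CPM. The inhibitory and regulatory list summed to 4064 and 3384 CPM and the NF-kB list to 8701 and 7872 CPM. All 4 of these sums were higher with *Ccl22*, the interferon list by little. Other lists went either way. The migration list had 17422 and 15521 CPM and the cytokine list 2118 and 1590 CPM. The MHC class II list had 28505 and 40988 CPM, the MHC class I list 22119 and 24877 and the sensor list 918 and 1277. The median depths of the members with and without *Ccl22* were 17086 and 12055.5 UMIs. Markers of plasmacytoid cells (3 or more) were held by 4 and 12 of them, of T cells by 4 and 9, of B cells by 3 and 6 and of natural killer cells by 0 and 2, and predicted doublets were 4 and 6, and the part of such cells in the difference was not tested. The natural killer list summed to 18.7 and 204 CPM and the endothelial list to 23.4 and 142 CPM. *Sox4* and *Tcf7* were also higher in members without *Ccl22* on day 7, day 14 and day 28.

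The reporter was read as the share of thinned cells with 1 or more UMIs of RFP, the added feature that is taken as tdT. It was 12.5% of members in sham (2.66 to 32.4), 42.2% on day 3 (33.8 to 51.0), 26.1% on day 7 (21.9 to 30.6), 51.1% on day 14 (42.4 to 59.7) and 40.7% on day 28 (33.9 to 47.7). B cells, which should lack it, were gated by 2 or more UMIs of *Cd79a*, 1 or more of *Ms4a1* and none of *Cd3e*, a gate chosen after seeing the data because the one planned left no cell on day 14 and day 28. Their shares were 23.1, 20.9, 28.1, 52.5 and 26.9%. The median depths before thinning were 14949, 12855, 12194.5, 14430 and 11840 UMIs in the members and 4262.5, 5907, 8867, 5845 and 3834.5 in the B cells. The member shares in sham, on day 7 and on day 14 were at or below those of these B cells, and the part of background in them was not tested. By the planned gate, with no *Lyz2* UMI, the B cell shares were 33.3% of 6 cells in sham and 18.5% of 130 on day 3. On day 7 it was 10.5% of 19 (1.30 to 33.1), so which of members and B cells is higher on day 7 depends on the gate. On day 3 and day 28 the member shares were higher than in B cells by the *Ms4a1* gate. They were 42.2 against 20.9% (17.8 to 24.3) and 40.7 against 26.9% (20.4 to 34.1), where the day 28 intervals overlap. Cd209a cells had 51.4, 53.3, 32.9, 80.8 and 11.1% from sham to day 28, and type 1 cells 25.9, 54, 33.5, 60.3 and 33.8%. Monocytes with *Ly6c2* and *Ccr2*, which should carry the reporter, were at 88.3% in sham, 84.0% on day 3 and 38.5% on day 7. At 3 or more UMIs the member shares were 0, 20.7, 5.02, 14.6 and 5.26%. Those of B cells by the *Ms4a1* gate were 7.02, 3.01, 11.5, 16.2 and 6.86%, and against these the day 3 share alone stayed above. By the planned gate the B cells had 0% in sham, on day 3 and on day 7, so the day 7 members also lay above them.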

How the data were processed

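The libraries were made with the droplet 3' gene expression kit and, per the labels, aligned to mm10 and counted by the authors with Cell Ranger 6.0.0. The deposited values are UMI counts with no normalization for called barcodes (8971 to 12688 per library), and the matrix header names version 3.1.0. Members, gene lists and comparisons were chosen with earlier results of these data known. The labels say nothing of separate animals, and each group is 1 library.

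Here UMIs were summed per class and library and tested with edgeR 4.0.16 (quasi-likelihood, TMM, filterByExpr, library as a block, Benjamini-Hochberg over all genes tested, 0.05), with DESeq2 1.42.0 as an alternative. Genes named are those of the fixed lists, of which 292 of 295 were found, plus the 5 largest changes each way that had the same direction in every library, and in ratios to sham the 5 largest each way without mitochondrial, ribosomal and immunoglobulin genes. Intervals are exact (95%), and floors 3 UMIs. Doublets were scored with Scrublet in scanpy 1.11.5 (0.8% per 1000 barcodes) in place of the authors' doublet package. The edgeR step was tested on simulated data. Reads of overlapping or near-identical genes, such as *Hba-a1* and *Hba-a2*, may be split.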

Additional observations from a re-analysis of the deposited data

Results flagged for a closer look

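Barcodes outside the quality filter were searched with the same gene rule. On day 7, 4 of 507 such barcodes met it (0.789%, exact binomial interval 0.215 to 2.01), against 0 of 2148 in sham, where the interval reaches 0.172%. There were 0 of 967 on day 3, 3 of 1998 on day 14 and 7 of 2408 on day 28. These barcodes enter no comparison.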

How the results depend on the processing

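The counts of genes that differed from the other classes kept within 1.5 times of their value under all alternatives but the one without day 7. As each library was left out in turn, the genes higher than in Cd209a cells numbered 1120 to 1721 and those lower 1087 to 1600, and against type 1 cells 1712 to 2113 were higher and 1705 to 2134 lower. With DESeq2 1467 were higher and 1452 lower than in Cd209a cells, and 1864 higher and 2029 lower than in type 1 cells. Shares that left their interval were 0.520% in sham without the *Car4* condition, 0.486% in sham and 2.56% on day 28 with the rule applied after thinning to 4000 UMIs, 2.17% on day 3, 2.41% on day 14 and 2.72% on day 28 with the day 7 floor, and 1.46% on day 3 without members holding 3 or more T, B, natural killer or endothelial markers. Without the *Car4* condition 95 genes were past 2-fold on day 7, against 145. The reporter shares of members were 63.0, 61.4, 51.0, 80.5 and 59.3% without thinning and 0, 20.7, 5.02, 14.6 and 5.26% at 3 or more UMIs, and the cause was not tested. Beyond these, 114 values of the shares, the counts over all genes and the reporter stayed within 1.5 times or their interval, and 278 values for 20 named genes kept their direction and side of the threshold. Counts within single gene lists were not among these, and those that changed by over 1.5 times without 1 library are given beside the lists. The alternatives on *Car4*, on barcodes seen in more than 1 library and on other cells' markers and the B cell gate were chosen after seeing the data. No paired analysis was possible because the labels give no replicate numbers, and the library block pairs classes of 1 library only. Depth limits the sham values, which rest on 27 cells.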

Other observations

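Further lists were counted in the same class comparisons (edgeR's quasi-likelihood test, adjusted p under 0.05). Over all genes tested, 21.8% were higher and 21.2% lower against Cd209a cells, and 23.6% were higher and 23.6% lower against type 1 cells. Cytokine genes had 2 higher and 2 lower of 9 tested against Cd209a cells, which is close to these shares. Against type 1 cells they had 6 higher and 3 lower of 10. Interferon-stimulated genes had 5 higher and 1 lower of 16 against Cd209a cells (2 of 10 higher without the day 7 library) and 8 higher and 3 lower of 16 against type 1 cells. Without the library block 2 of 16 were higher in either comparison. Genes of the type 2 response had 2 higher and 4 lower of 9, and 6 higher and 3 lower of 10. The type 1 dendritic cell list was lower in 4 of 5 and 7 of 7 genes, and the type 2 list in 6 of 7 against Cd209a cells and 3 of 6 against type 1 cells, where 1 was higher.

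Summed groups of genes were also read in the members. Ribosomal protein genes took 16.7% of UMIs in sham, 11.0% on day 3, 21.0% on day 7, 17.1% on day 14 and 17.9% on day 28. Mitochondrial genes took 3.83, 1.71, 3.36, 3.90 and 4.36%, and immunoglobulin genes between 0.00279 and 0.0228%. The day 3 members were thus lowest in both ribosomal protein and mitochondrial transcripts. *Rel*, an NF-kB subunit of the canonical arm, had 743, 606, 860, 1123 and 816 CPM from sham to day 28, and *Il1b*, an inflammatory cytokine, had 575, 778, 744, 877 and 213 CPM. *Cxcl2*, a neutrophil chemokine, had 81.4 CPM in sham and 194, 372, 455 and 166 CPM at the 4 days after bleomycin.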
